A study of Mus musculus with 5 samples.

Results

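The 10 genes through which HT22 cells take up cystine, make and use glutathione and answer oxidative stress were examined among the 55487 genes of the deposited counts table. They are Slc7a11, Gclc, Gclm, Gss, Gsr, Gpx1, Gpx4, Nfe2l2, Hmox1 and Nqo1, a list chosen by name, and all 10 were found in the table by their Ensembl identifiers and GRCm38 symbols. HT22 is a mouse hippocampus-derived line, in which the study asked which genes depend on the long non-coding RNA GAS5. Cells were transfected with 10 nM siRNA and collected after 48 h, and poly(A) RNA was sequenced. The groups were GAS5 siRNA210 (1 library), GAS5 siRNA596 (2 libraries) and negative-control (NC) siRNA (2 libraries). The treatment label calls the NC samples untreated, whereas their titles read NC and the study's methods describe an NC siRNA. Both GAS5 siRNAs together form the knockdown (KD) group. Nothing in the labels says that the libraries came from separate cultures, so *P*-values measure only the spread between these libraries.

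HT22 cells are a known model of oxytosis, a form of oxidative cell death. Extracellular glutamate blocks the cystine/glutamate exchanger, cystine no longer enters, and glutathione runs out. Glutathione is built from cysteine by glutamate-cysteine ligase and glutathione synthetase, is spent by glutathione peroxidases, and is restored by glutathione reductase. The transcription factor NRF2, held back by KEAP1 in unstressed cells, switches on many of these genes.

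Levels are CPM, read counts scaled to a common library size with the TMM method of edgeR. In bulk RNA, fewer cells of a kind and less RNA per cell cannot be told apart. The total counts ran from 30660265 to 36492134. The library labelled siRNA596 replicate 2 was set apart. It was over 2-fold away from their mean, upward in 16.0% and downward in 16.4% of the 10574 genes whose mean reached 5 CPM. Gas5 also went against its label, with 179 CPM there. It had 90.4 and 76.0 CPM in NC, and 59.7 and 65.9 CPM in siRNA210 and siRNA596 replicate 1. The log2 difference between these groups was -0.41 (standard error 0.11, unadjusted *P* = 0.0038 and adjusted *P* = 0.967 from edgeR). KD and NC were therefore compared with 2 libraries each, without that library. Its values are given beside them, and values with all 5 libraries follow. For Gas5 the log2 difference with all 5 libraries was 0.29 (standard error 0.53), in the other direction. The lower Gas5 level in KD thus depends on leaving that library out, a choice in which Gas5 took part. The label "Hippocampal neuronal" was checked against 10 neuronal genes, of which 7 were under 1 CPM in every library. Snap25, Nefl and Nefm had 0 counts in all 5 libraries and Rbfox3 at most 2, while Map2 ran from 31.5 to 87.0 CPM and Tubb3 from 14.9 to 27.1. Slc17a7, also above 1 CPM, ran from 1.67 to 3.72 CPM. The summed neuronal level was 98.2 to 104.7 CPM in NC, 97.4 to 104.6 in KD and 52.7 in the library labelled siRNA596 replicate 2. Map2 made up most of this sum, with 69.0 and 87.0 CPM in NC and 31.5 in that library. The part of its exon length, 16449 bases, was not tested. Among 5 astrocyte, 5 oligodendrocyte, 5 microglia and 4 endothelial markers, 4, 3, 3 and 4 were under 1 CPM in every library. The microglia marker Tmem119 ran from 22.5 to 42.1 CPM, while Ptprc, another, had 0 counts in all 5 libraries. The summed microglia level was 23.8 to 24.0 CPM in NC, 25.9 to 26.4 in KD and 44.2 in the library labelled siRNA596 replicate 2. Of 4 progenitor and intermediate filament genes, Sox2 had 0 counts in all 5 libraries, while Vim ran from 2549 to 4360 CPM, Nes from 447 to 509 and Pax6 from 35.8 to 49.4. Their summed level was 3045 to 3403 CPM in NC, 3461 to 3723 in KD and 4867 in the library labelled siRNA596 replicate 2.

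Sequences that carry known features of these genes are shown first. In Slc7a11, which encodes xCT, the transport subunit of the cystine/glutamate exchanger, the promoter holds a pair of amino acid response elements, the sites through which ATF4 acts. The stretch is chr3:50443641-50443691 of GRCm38, on the minus strand, and capitals mark TGATGCAA and its reverse complement, which start 66 and 47 bases before the start site.

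Slc7a11: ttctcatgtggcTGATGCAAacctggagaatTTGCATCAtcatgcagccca

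TGATGCAA, searched on both strands of RefSeq promoter windows running from 250 bases before to 50 after a start site, was found in 0.895% of 32851 windows. By gene, 1.03% of all 27025 genes with a window held it. Of the 7 listed genes that have one, 1 did. It was Slc7a11, whose elements were known beforehand, so this count is not a test. Windows were matched for Slc7a11, Gclm, Gss, Gpx1, Gpx4, Nfe2l2 and Nqo1. The core of the antioxidant response element, TGACNNNGC, to which NRF2 binds with small MAF proteins, was found in 14.0% of genes and in 2 of these 7, Nfe2l2 and Gclm. Both matches are shown with the core in capitals. In Nfe2l2 (chr2:75704884-75704913, minus strand) it starts 240 bases before the start site. In Gclm (chr3:122245413-122245442, plus strand) it lies on the opposite strand, so its reverse complement is seen, starting 134 bases before the start site.

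Nfe2l2: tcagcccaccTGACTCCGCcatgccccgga

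Gclm: gctcccgggcGCACCGTCAactctcacgag

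Among 20 other NRF2 targets with a window, 10 held the core. A match of letters is a description of the promoter and not a measured binding site, and 250 bases do not reach distant enhancers.

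Gpx1 and Gpx4 encode selenoproteins, whose active site is a selenocysteine written by a TGA codon that would otherwise end translation. The codon is shown in capitals within 45 bases of coding sequence. In Gpx1 it is codon 47 of 201, in exon 1 of 2 (chr9:108339451-108339453, plus strand). In Gpx4 it is codon 129 of 253 in transcript Gpx4-201, in exon 3 of 7 (chr10:80054737-80054739, plus strand).

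Gpx1: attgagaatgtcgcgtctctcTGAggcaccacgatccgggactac

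Gpx4: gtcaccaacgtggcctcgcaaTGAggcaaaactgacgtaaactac

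The pair shared 25 of these 45 bases, counted position by position.

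Per kilobase of annotated exon, the mean level over the 4 libraries was highest for Hmox1, at 188 CPM per kilobase. It was followed by Gpx4 at 146, Gpx1 at 123, Nqo1 at 32.7, Gsr at 32.6, Nfe2l2 at 22.5, Gclc at 18.1, Gclm at 12.2, Gss at 5.48 and Slc7a11 at 2.71. The first 3 of these overlapped in their ranges, since Hmox1 ran from 70.9 to 244 CPM per kilobase, Gpx4 from 130 to 160 and Gpx1 from 119 to 131. Nqo1 (26.7 to 36.4) overlapped with Gsr (32.1 to 33.3), and Nfe2l2 (16.8 to 24.9) with Gclc (16.8 to 18.7). Gclm, Gss and Slc7a11 did not overlap with a neighbour. The order rests on the length of all annotated exons together, which for Slc7a11 is 13922 bases. It ranks RNA levels of these libraries and says nothing of protein.

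**Figure D1:**
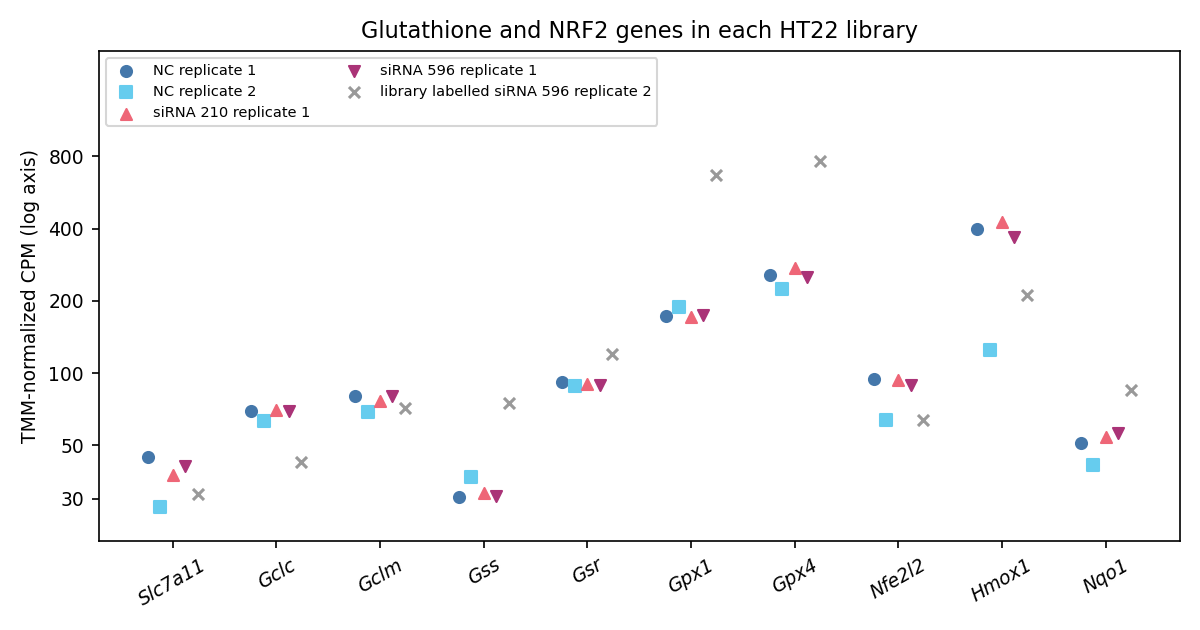
Level of each of the 10 genes in each of the 5 libraries, in TMM-normalized CPM on a log axis; each point is 1 library. NC replicate 1 and both KD libraries lie close together for every gene, NC replicate 2 lies far below them for Hmox1 (124 CPM against 369 to 427), and the library labelled siRNA596 replicate 2 lies above the others for Gpx1, Gpx4, Gss, Gsr and Nqo1.

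The question of the design is whether KD of GAS5 moved these genes. None of the 10 had an adjusted *P* under 0.05 in edgeR, where 0% of 15867 genes did. Gas5 itself, with means of 62.8 CPM in KD and 83.2 in NC, was not called at that threshold either. Its unadjusted *P* was 0.0038 from edgeR, with a choice of libraries in which Gas5 took part. Gas5 was lower only in part, so these tests cannot decide what a stronger loss of GAS5 would do. Nqo1 was the only 1 of the 10 with an unadjusted *P* under 0.05, against 3.30% of all genes. No listed gene passed the criteria set for this comparison, an unadjusted *P* of 0.05 together with a fold change of 2, which 0.876% of genes passed. DESeq2 on the same libraries gave 1 gene with an adjusted *P* under 0.05 and 368 with an unadjusted *P* under 0.05, none of either kind among the 10. The 10 log2 fold changes ran from -0.11 for Gss to 0.60 for Hmox1 and had a median of 0.095, beside -0.0023 for all genes tested. Of the 10, 7 were above 0, where 7850 of 15867 genes (49.5%) were. The median of the 10 turned to -0.0052 without NC replicate 2, with 4 above 0, where 8034 of 15860 genes were. It was 0.20 without NC replicate 1. Both KD libraries lay above both NC libraries for Nqo1 alone, where 16.7% of all genes did so. For none of the 10 did they lie below, where 16.2% of all genes did.

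Slc7a11 (chr3:49892526-50443614, minus strand) had NC levels of 44.6 and 27.7 CPM in replicates 1 and 2, against 37.6 with siRNA210 and 41.1 with siRNA596 replicate 1. Both KD libraries thus lay between the NC libraries. The means were 39.3 ± 2.47 in KD and 36.1 ± 12.0 in NC (SD, n = 2 each), a log2 fold change of 0.12 (standard error 0.19, adjusted *P* = 0.977 from edgeR). Without NC replicate 2 the log2 fold change was -0.18.

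The ligase that carries out the rate-limiting step of glutathione synthesis has a catalytic subunit, Gclc, and a modifier subunit, Gclm. Gclc (chr9:77754535-77794485, plus strand) had 69.8 and 63.3 CPM in NC, and 70.4 and 69.2 CPM in siRNA210 and siRNA596 replicate 1. Gclm (chr3:122245557-122270732, plus strand) had 80.4 and 69.1 CPM in NC, and 76.5 and 80.2 in the same KD libraries. For both subunits only NC replicate 2 was set apart, on the low side, and their log2 fold changes were 0.068 (standard error 0.089) and 0.066 (standard error 0.097). Neither passed the test (adjusted *P* = 0.975 and 0.977 from edgeR). Glutathione synthetase, Gss (chr2:155563181-155592810, minus strand), which adds glycine in the final step, was highest in NC replicate 2. It had 30.5 CPM in NC replicate 1, 31.6 with siRNA210, 30.7 with siRNA596 replicate 1 and 36.8 in NC replicate 2, with a log2 fold change of -0.11 (standard error 0.12). Exons of Acss2 overlap those of Gss on the opposite strand. Since the strand setting of the counting is not given in the sources used here, their reads cannot be told apart with certainty.

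Glutathione reductase, Gsr (chr8:33652523-33698163, plus strand), which returns oxidized glutathione to its reduced form, varied least of the 10. It had 91.7 and 88.3 CPM in NC and 90.3 and 89.0 in KD, a range of 1.04-fold over the 4 libraries and a log2 fold change of -0.0077 (standard error 0.080). Gpx1 (chr9:108338903-108340343, plus strand), the cytosolic peroxidase that removes hydrogen peroxide, had 174 and 189 CPM in NC and 171 and 175 in KD. Gpx4 (chr10:80047166-80056439, plus strand), which reduces lipid peroxides and guards against oxytosis and ferroptosis, had 257 and 225 CPM in NC and 275 and 252 in KD. NC replicate 2 was the highest library for Gpx1 and the lowest for Gpx4, and the log2 fold changes were -0.071 (standard error 0.082) and 0.13 (standard error 0.093). An annotated pseudogene of Gpx4, Gpx4-ps2, had 1393 to 3383 reads per library, so the split of reads between it and Gpx4 is uncertain.

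Nfe2l2 (chr2:75675513-75704641, minus strand), which encodes NRF2 itself, had 94.6 CPM in NC replicate 1, 93.7 with siRNA210 and 89.5 with siRNA596 replicate 1, but 63.8 in NC replicate 2. The other 3 libraries thus lay within 1.06-fold, and the fit gave a log2 difference of 0.21 (standard error 0.15, adjusted *P* = 0.967 from edgeR) with NC replicate 2 and -0.047 without it. Hmox1 (chr8:75093621-75100589, plus strand), heme oxygenase 1, which splits heme into biliverdin, carbon monoxide and iron, was also lowest in NC replicate 2. It had 399 CPM in NC replicate 1, 427 with siRNA210 and 369 with siRNA596 replicate 1, against 124 in NC replicate 2. The log2 fold change of 0.60 (standard error 0.39, adjusted *P* = 0.967 from edgeR) became -0.0045 without NC replicate 2 and 1.68 without NC replicate 1. Against NC replicate 2 alone, Hmox1 was the only 1 of the 10 past the criteria, which 2.22% of 16873 genes passed, and its adjusted *P* was 0.207 from edgeR.

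Nqo1 (chr8:107388225-107403206, minus strand), a quinone reductase and a standard readout of NRF2, was the only 1 whose KD and NC libraries did not overlap. It had 50.9 and 41.4 CPM in NC, 54.3 with siRNA210 and 56.5 with siRNA596 replicate 1, or 55.4 ± 1.54 in KD and 46.2 ± 6.70 in NC (SD, n = 2 each). This is a log2 difference of 0.26 (standard error 0.11, unadjusted *P* = 0.0473 and adjusted *P* = 0.967 from edgeR). DESeq2 gave an unadjusted *P* of 0.0531. Without NC replicate 2 the log2 fold change was 0.12, and without NC replicate 1 it was 0.42. Without siRNA210 it was 0.29, and without siRNA596 replicate 1 it was 0.23. Its size thus depended most on which NC library was kept.

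**Figure D2:**
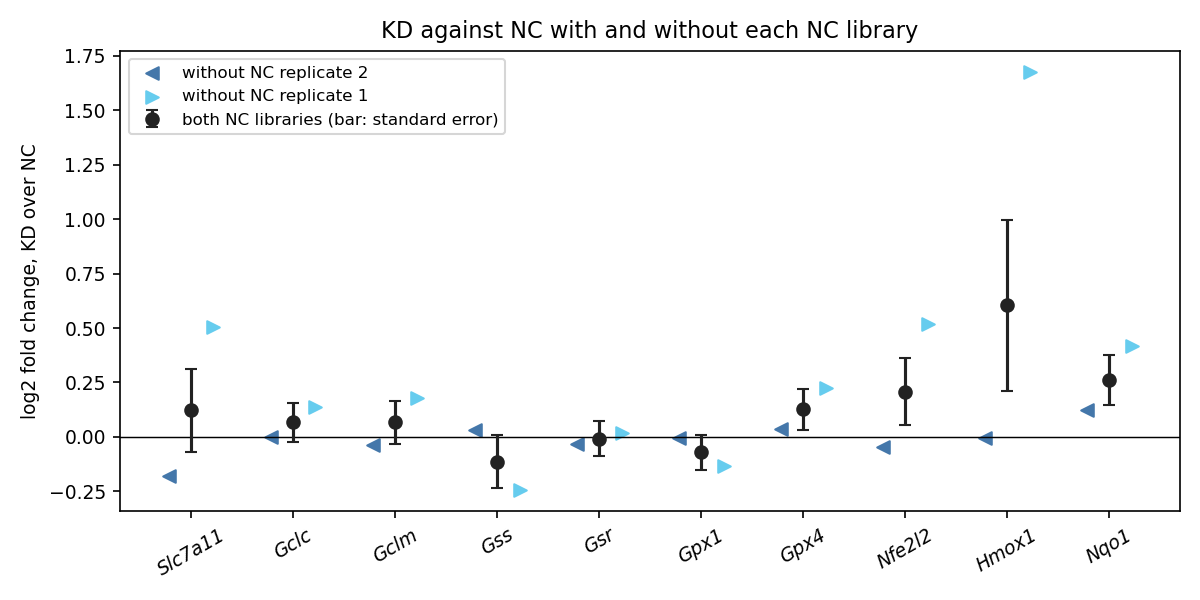
Log2 fold change of KD over NC for each of the 10 genes, with both NC libraries (black points, bars give the standard error of the edgeR fit) and after leaving out 1 NC library. For Hmox1 the value ran from -0.0045 without NC replicate 2 to 1.68 without NC replicate 1, and the dark blue points (without NC replicate 2) lie between -0.18 and 0.12.

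The siRNA210 library and siRNA596 replicate 1 lay close together in these genes. Their ratio ran from 0.915 for Slc7a11 to 1.16 for Hmox1, and for Gclc, Gsr, Gss and Gpx1 it lay between 0.976 and 1.03. With 1 library each this difference has no test. When NC replicate 1 was added, the ratio of the highest to the lowest of these 3 libraries was 1.02 for Gclc, 1.11 for Nqo1 and at most 1.19, for Slc7a11.

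The libraries of the NC group differed from each other. NC replicate 2 was the lowest of the 4 libraries for 8 of the 10 genes, where it was lowest for 34.3% of all genes, and the highest for the other 2, Gss and Gpx1, where it was highest for 32.6%. Relative to the mean of the other 3 libraries its log2 difference was -1.68 for Hmox1, -0.57 for Slc7a11, -0.54 for Nfe2l2 and -0.38 for Nqo1. For the other 6 it lay between -0.22 and 0.25. Hmox1 was 3.22-fold lower than in NC replicate 1, and only 6 of 10535 genes whose mean reached 5 CPM had a lower ratio between the NC libraries. It was the 1 listed gene over 2-fold lower in that comparison, where 0.532% of genes were. This is a difference between 2 single libraries of 1 group, and it has no test.

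The wider pathway was followed in lists of genes fixed by name, which were chosen with earlier results of these data known. Of 21 other NRF2 targets, NC replicate 2 was the lowest library for 17, where it was lowest for 34.3% of all genes. It was the highest for 1, where it was highest for 32.6%. The median log2 difference from the other 3 libraries was -0.23, beside -0.0093 for all genes. Aldh3a1, an aldehyde dehydrogenase, was 2.61-fold lower in NC replicate 2 than in NC replicate 1, and Ftl1, the ferritin light chain, was 1.66-fold lower. The most abundant targets per kilobase were Ftl1 (567 and 341 CPM in NC, 617 and 560 in KD), Txn1, thioredoxin (349 and 311 against 355 and 346), and Fth1, the ferritin heavy chain (1044 and 963 against 1094 and 1108). Between KD and NC, 1 of the 21 had an unadjusted *P* under 0.05 in edgeR, where 3.30% of all genes did. It was Taldo1, a transaldolase of the pentose phosphate pathway, the route that also yields NADPH. Taldo1 had 143 and 134 CPM in NC and 181 and 172 in KD, a log2 fold change of 0.35 (standard error 0.082, adjusted *P* = 0.967 from edgeR), and its log2 fold change was 0.30 without NC replicate 2 and 0.40 without NC replicate 1. The median log2 fold change of the 21 was 0.13, with 19 above 0, where 49.5% of all genes were. Both KD libraries lay above both NC libraries for 5 of the 21, where 16.7% of all genes did so. Without NC replicate 2 that median was 0.025, with 17 above 0, where 8034 of 15860 genes were. Without NC replicate 1 the median was 0.24.

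Of 13 genes that control NRF2, none had an unadjusted *P* under 0.05 in edgeR, where 3.30% of all genes did. The median log2 fold change was 0.015, or 0.081 without NC replicate 1. NC replicate 2 was the lowest library for 8 of them and the highest for 2, against 34.3% and 32.6% of all genes. Sqstm1, the autophagy adaptor p62 that binds KEAP1 and is also an NRF2 target, had 755 CPM in NC replicate 1, 717 and 687 in KD and 456 in NC replicate 2. Nfe2l1, the related factor NRF1, had 360 and 323 CPM in NC and 392 and 356 in KD. Rbx1, part of the ubiquitin ligase that degrades NRF2, was level, at 125 and 126 CPM in NC and 126 in each KD library. Trim21 had the widest log2 fold change of this list, -0.29 (standard error 0.24), at 6.23 and 9.91 CPM in NC and 7.21 and 6.04 in KD.

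Of 23 other genes of glutathione and cystine handling, 18 passed the filter on low counts. Where 3.30% of all genes had an unadjusted *P* under 0.05 in edgeR, 1 of these 18 did. It was Slc1a3, a glutamate and aspartate transporter. Slc1a3 had 31.0 and 50.1 CPM in the 2 NC libraries and 24.4 and 31.3 in KD. The edgeR fit gave a log2 fold change of -0.54 (standard error 0.21, adjusted *P* = 0.967) and one of -0.15 without NC replicate 2. Slc3a2, the heavy chain that partners with xCT at the membrane, followed the order of Slc7a11 for NC replicate 2, with 320 and 242 CPM in NC and 317 in each KD library. Slc7a5, which shares that heavy chain, had 343 and 387 CPM in NC and 376 and 352 in KD, and Gpx8, a peroxidase of the endoplasmic reticulum, stayed between 42.7 and 44.9 CPM in the 4 libraries. Gpx3 had the widest log2 fold change, 1.23 (standard error 0.71), on 18 and 11 counts in NC and 53 and 14 in KD. Slc1a1, a glutamate transporter that also carries cysteine into neurons, had 0 counts in all 5 libraries.

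In the list of 22 oxytosis and ferroptosis genes, 19 passed the filter. Where 3.30% of all genes had an unadjusted *P* under 0.05 in edgeR, 2 of these 19 did, both lower in KD. Tfrc, the transferrin receptor that brings iron into the cell, had 127 CPM in NC replicate 1, 103 with siRNA210, 129 with siRNA596 replicate 1 and 356 in NC replicate 2. It was thus 2.81-fold higher in NC replicate 2 than in NC replicate 1, opposite to Hmox1 and Ftl1. The log2 fold change of -1.06 (standard error 0.36, adjusted *P* = 0.967 from edgeR) was -0.13 without NC replicate 2. Bid, whose product carries the death signal to mitochondria in this model, had 34.2 and 48.5 CPM in NC and 31.9 and 31.4 in KD, a log2 fold change of -0.39 that was -0.11 without NC replicate 2. The most abundant of the list per kilobase were Atf4, the stress factor that acts on Slc7a11 (355 and 334 CPM in NC, 366 and 321 in KD), Vdac2, a channel of the outer mitochondrial membrane, and Cisd1, an iron-sulfur protein of the same membrane. Vdac2 stayed between 221 and 224 CPM and Cisd1 between 42.0 and 46.8.

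**Figure D3:**
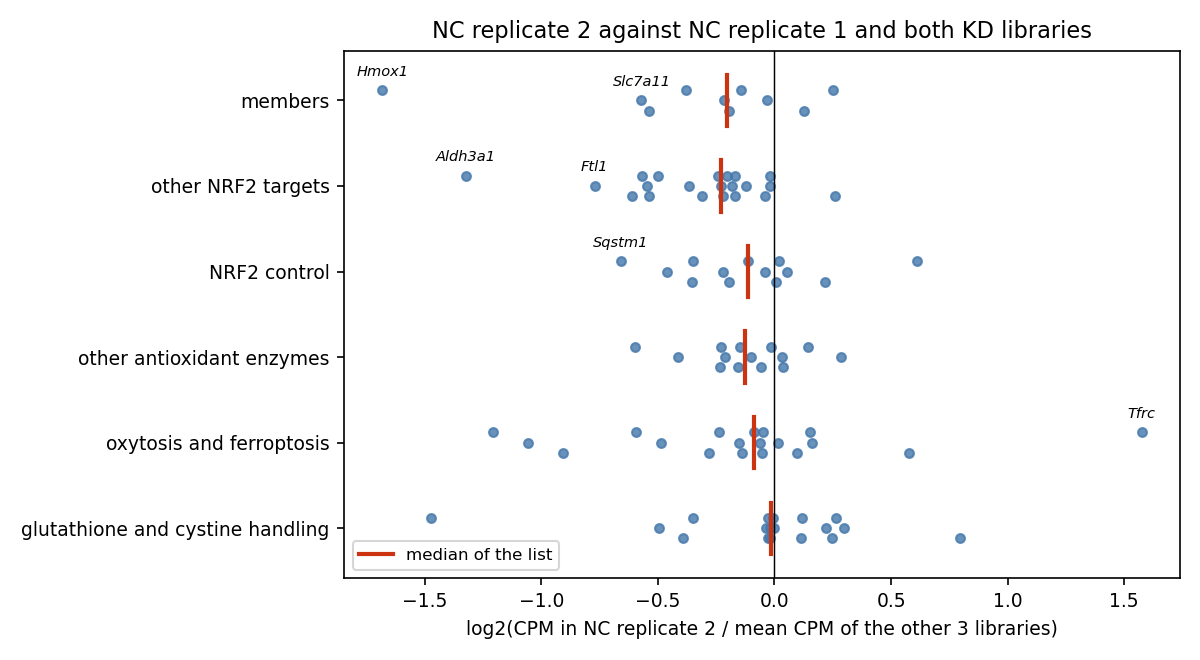
Log2 ratio of the CPM in NC replicate 2 to the mean CPM of NC replicate 1 and both KD libraries, for the 10 genes (top row) and for the genes of 5 lists that passed the filter; each point is 1 gene and red bars are list medians. Most points of the NRF2 target list lie left of 0, with a median of -0.23, and Tfrc lies at the right end.

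Among 14 other antioxidant enzymes, none had an unadjusted *P* under 0.05 in edgeR, where 3.30% of all genes did. The median log2 fold change was 0.078 (0.023 without NC replicate 2 and 0.14 without NC replicate 1). NC replicate 2 was the lowest library for 9 of the 14, against 34.3% of all genes. Sod1, the cytosolic superoxide dismutase, had 266 and 244 CPM in NC and 273 and 271 in KD. The peroxiredoxins Prdx2 and Prdx5 had 241 to 263 CPM and 149 to 182 CPM over the 4 libraries. Sod3, the secreted superoxide dismutase, had the widest log2 fold change, 0.25 (standard error 0.18), with 29.8 CPM in NC replicate 2 against 40.4 to 49.3 in the others. Of 14 subunits of ionotropic glutamate receptors, through which glutamate acts on neurons by another route, 13 were under 1 CPM in every library, and 6 had 0 counts in all 5. Grin2d had 4 to 21 counts and Grin2c 0 to 8, and Grik5 alone was well expressed, at 82.7 to 86.4 CPM in the 4 libraries.

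Hmox1 had the widest range of the 10 over the 4 libraries of the comparison (3.44-fold) and was set against 11248 other genes with a mean of at least 100 counts and a read in every library. The genes whose log2 CPM followed it most closely over the 5 libraries were Pim1, a kinase, and Ly6c1, a surface antigen. The root mean square distances were 0.15 and 0.16 on the log2 scale, where the median gene had 0.75. Pim1, for example, had 19.0 CPM in NC replicate 1 and 6.26 in NC replicate 2. Neither is in the lists above. With 5 libraries this likeness is a description only.

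In the library labelled siRNA596 replicate 2 the 10 genes parted. Gpx1 stood at 668 CPM, 3.77-fold above the mean of the other 4 libraries, Gpx4 at 762 CPM (3.02-fold) and Gss at 74.8 CPM (2.31-fold, or 1.92-fold with scaling by library size only). These 3 were over 2-fold higher, where 16.0% of genes were, and none of the 10 was over 2-fold lower, where 16.4% of genes were. Nqo1 at 85.4 CPM and Gsr at 120 CPM were also above all 4 other libraries. Gclc was lowest relative to the others, at 42.8 CPM or 62.7% of their mean. Hmox1 at 211 CPM and Nfe2l2 at 63.7 CPM were below both KD libraries of the comparison and NC replicate 1, Slc7a11 at 31.5 CPM was also below these 3, and Gclm had 71.7 CPM, between the NC libraries.

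Exon length moved with these values in part, and its part in them was not tested. Gpx1 (1441 bases), Nqo1 (1553) and Gpx4 (1724) are the shortest of the 10 and were higher, and Gclc (3766), Nfe2l2 (3796), Gclm (6291) and Slc7a11 (13922) were lower. Hmox1 (1751 bases) and Gss (5915 bases) went against this order. After a trend of each library on exon length was removed, the ratio to the other 4 libraries was 2.20 for Gpx1, 1.85 for Gpx4, 1.00 for Nqo1, 2.98 for Gss, 1.79 for Slc7a11 and 0.395 for Hmox1. With all 5 libraries in the fit, none of the 10 had an unadjusted *P* under 0.05 in edgeR, where 0.372% of 16142 genes did. The log2 fold changes of Gpx1, Gpx4 and Gss were then 0.90, 0.83 and 0.44 (standard errors 0.67, 0.55 and 0.46), and that of Gclc was -0.13.

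**Figure D4:**
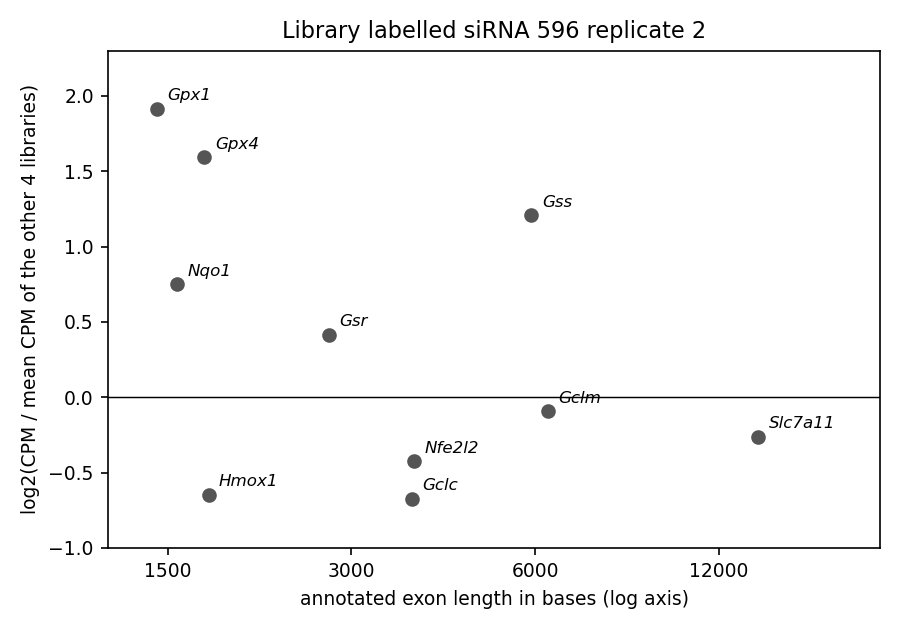
Log2 ratio of the CPM in the library labelled siRNA596 replicate 2 to the mean CPM of the other 4 libraries, against annotated exon length in bases (log axis), for the 10 genes; each point is 1 gene. Gpx1 and Gpx4 are short and high, Slc7a11 is long and slightly low, and Hmox1 and Gss lie off that order.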

How the data were processed

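RNA-Seq of 5 HT22 libraries was read from the deposited counts table. The authors deposited unnormalized read counts for each gene, made with Trimmomatic, HISAT2 2.1.0 (GRCm38), SAMtools 1.7 and featureCounts 2.0.1. The strand setting and the handling of multi-mapping reads are not given in the sources used here. The other deposited table holds the authors' DESeq2 comparison and was not used. Symbols (99.4% of genes), exon lengths and coordinates came from GENCODE M21 (GRCm38), promoters from RefSeq (GRCm38.p6).

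Genes past filterByExpr were tested with the quasi-likelihood test of edgeR 4.0.16 (R 4.3.3) after TMM scaling, with Benjamini-Hochberg adjustment over all genes tested. A standard error is the log2 fold change divided by the square root of F. DESeq2 1.42.0 served as an alternative. The fit was tested on simulated data with 200 changed genes and the same spread for every gene. That setting does not cover a difference between libraries of the same group, as seen in NC. The members, lists, libraries and tests were chosen with earlier results of these data known. From each list the 3 most abundant genes per kilobase, those with an unadjusted *P* under 0.05 and the one with the widest log2 fold change were named. The genes most like Hmox1 over the 5 libraries were also named, of which 1 is not reported here. Total counts of 30660265 to 36492134 leave precision limited by the number of libraries rather than by depth, as every listed gene had at least 831 reads. The alternatives covered test, scaling, filter, robust fitting, each library left out, all 5 libraries, siRNA596 alone, fitted once plainly and once with a replicate block, and a length trend. Figures were drawn with matplotlib 3.10.9.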

Additional observations from a re-analysis of the deposited data

Results flagged for a closer look

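Values of 3 genes lie in the library labelled siRNA596 replicate 2, which was outside the comparison of KD with NC, and exceed the control level by more than 2-fold. Gpx1 stood at 3.53 times the higher NC library, Gpx4 at 2.96 times and Gss at 2.03 times. With scaling by library size only, Gss was 1.92-fold above the mean of the other 4 libraries, against 2.31-fold with TMM. In that library 16.0% of genes were over 2-fold above the mean of the other 4 libraries. This share uses another measure than the ratio to the higher NC library, for which no share was counted.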

How the results depend on the processing

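None of the 10 genes had an adjusted *P* under 0.05 in any of the 14 alternatives, and 116 of 140 log2 fold changes kept their direction. The number of genes past both criteria, 139, became 67 with DESeq2, 73 with at least 10 counts in every library, 282 with no filter, 57 with all 5 libraries and 46 when the length trend was also removed. Leaving out 1 library gave 125 to 374 genes and 0 to 1 of the 10, the 1 being Hmox1 without NC replicate 1. The median log2 fold change of the 10 was 0.25 with all 5 libraries and ran from -0.0052 (without NC replicate 2) to 0.20 (without NC replicate 1) when 1 library was left out. With siRNA596 against NC, the replicate block moved the count from 41 to 426 genes and gave a median of 0.26. Same-numbered libraries share only a number (correlation of deviations 0.138 over 16142 genes, 2 pairs). The direction turned for Gclc (-0.13), Gss (0.44), Gsr (0.15) and Gpx1 (0.90) with all 5 libraries, and for Gclc (-0.17), Gss (0.64) and Gpx1 (0.41) with the length trend removed. With siRNA596 and no replicate block it turned for Gclc (-0.25), Gss (0.65), Gsr (0.22), Gpx1 (1.22) and Nfe2l2 (-0.046), and with the replicate block for the same genes (-0.28, 0.52, 0.20, 0.92 and -0.038). Leaving out 1 library gave ranges of -0.18 to 0.50 for Slc7a11, -0.037 to 0.18 for Gclm, -0.24 to 0.030 for Gss, -0.033 to 0.019 for Gsr, -0.047 to 0.52 for Nfe2l2 and -0.0045 to 1.68 for Hmox1. The cause was not tested. Where 1 library was left out, the lone library of its group was assumed to vary like the others. In the library labelled siRNA596 replicate 2, Gpx1, Gpx4 and Gss were over 2-fold away with TMM, Gpx1 and Gpx4 with scaling by library size only, and Gpx1, Gss and Hmox1 with the length trend removed.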

Other observations

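In the library labelled siRNA596 replicate 2, 2 more genes of the lists, chosen after their values were seen, were far below the other 4 libraries. Ncoa4, the receptor that delivers ferritin for breakdown, had 190 counts there and 1952 to 2844 in the others, or 10.2% of their mean CPM. Bach1, a repressor of Hmox1, had 340 counts against 1555 to 1894, or 26.3%. Of 10574 genes whose mean reached 5 CPM, 16.4% were over 2-fold below the other 4 libraries there. The annotated exons of Ncoa4 and Bach1 have 9365 and 6179 bases, and the part of length in these values was not tested. In NC replicate 2, Ptgs2, a cyclooxygenase used as a marker of ferroptosis, was 2.60-fold lower than in NC replicate 1. Hspb1, a small heat shock protein, was 2.11-fold lower, and both were also chosen after their values were seen. Of 10535 genes whose mean reached 5 CPM, 0.532% were over 2-fold lower between these NC libraries. Neither comparison has a replicate.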
